A study of Homo sapiens with 12 samples.

Results

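The Rab family of small GTPases was examined in HCT116 cells treated with ammonium chloride (NH4Cl), with TGF-β, or with both. The members were selected on their names and on measured levels: of 25733 genes, 63 carry a Rab name with a number and at most 1 further letter, and the 48 whose FPKM averaged 0.5 or more across all 12 libraries were kept. FPKM scales the fragments of a gene by its length and by the depth of the library. RAB33A, the member that gave the group its name, was singled out for its difference between NH4Cl-treated and control cells, so its values in that comparison are a description without a test. HCT116 is an established human colorectal cancer line. The 4 groups had 3 libraries each: control cells, labelled as without treatment where the paper's general methods name a vehicle, cells given 200 pM TGF-β for 1 h, cells given 10 mM NH4Cl for 24 h, and cells given 10 mM NH4Cl for 23 h and then TGF-β for 1 h. Whether NH4Cl stayed on during the last 1 h is not stated. Ammonia is a product of gut microbes, and the comparisons ask how it alters gene expression in colon cancer cells with and without TGF-β.

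Rab proteins are molecular switches that cycle between a GTP-bound form on membranes and a GDP-bound form in the cytosol. Exchange factors load GTP, GTPase-activating proteins trigger its hydrolysis, and effectors recognise the GTP-bound form and carry out vesicle budding, transport, tethering and fusion. Many Rabs mark a compartment. RAB1 and RAB6 proteins act at the endoplasmic reticulum and Golgi, RAB5 at early endosomes, RAB11 at recycling endosomes, RAB7 at late endosomes and lysosomes. RAB33A and its close relative RAB33B bind ATG16L1, a protein needed to build autophagosomes; RAB33B is a Golgi protein found in many tissues, while RAB33A is known mainly from brain and immune cells. NH4Cl is a salt of the weak base ammonia, which raises the pH of endosomes and lysosomes.

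The libraries held between 14807630 and 18191998 reads on genes. The 4 libraries with replicate number 3 stood apart from the others in every group. Mitochondrial genes took between 4.50% and 5.12% of their reads, against 2.46% to 3.18% in the 8 libraries of replicates 1 and 2. Each group holds 1 such library, so this difference is balanced over the treatments. The labels call the libraries replicates without saying that they came from separate cultures, so p-values measure the spread between these libraries only.

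The cells carried most of the listed markers of colon epithelium. The epithelial adhesion molecule EPCAM had a mean FPKM of 254 and the brush border protein villin, VIL1, of 90.3, and the intestinal factor CDX2 of 13.6. Of 10 epithelial markers 8 passed the mean of 0.5, while KRT20, a marker of mature surface cells, had a mean of 0.190 and CEACAM5 of 0.0956. From control to NH4Cl cells the mean went from 243 to 262 for EPCAM and from 621 to 472 for the keratin KRT19. The sum of the 10, mostly from KRT8, KRT18 and KRT19, was 2758 ± 497 in control and 2502 ± 353 in NH4Cl cells (SD, n = 3). These overlapped at 1 SD. Limma called 4 of the 8 tested in the average NH4Cl comparison with the replicate block and 1 without it, where 27.7% and 5.45% of all genes were called. The summed level of 4 leukocyte markers found lay between 0.613 and 2.41 FPKM in all libraries, mostly from LYZ. The 6 fibroblast markers summed to 9.04 ± 1.38 FPKM in control, 8.98 ± 0.599 in TGF-β, 10.4 ± 0.552 in NH4Cl and 10.3 ± 0.837 in NH4Cl+TGF-β cells (SD, n = 3), mostly from LUM with a mean of 7.79, while COL1A2 did not exceed 0.0185 in any library. The 4 endothelial markers summed to 2.62 ± 1.35 FPKM in control and 3.86 ± 1.74 in NH4Cl cells (SD, n = 3), mostly from VWF, and KDR did not exceed 0.0574. The 6 neuronal markers found summed to 1.96 ± 0.0434 FPKM in control and 1.65 ± 0.112 in NH4Cl cells (SD, n = 3), with SYP the most abundant at a mean of 0.810. With the block limma called 1 of 2 tested fibroblast, 1 of 1 endothelial, 1 of 2 neuronal and 0 of 1 leukocyte markers in the average NH4Cl comparison, and none of these without it. In libraries made from whole cultures, fewer cells of a kind and less RNA per cell cannot be told apart.

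In control cells the level of the 48 members ranged from 0.458 FPKM for RAB41 to 80.3 for RAB7A, and each compartment was led by a few genes. RAB7A, the late endosomal Rab, had 80.3 ± 0.702 FPKM (SD, n = 3), followed by RAB1A, which acts between endoplasmic reticulum and Golgi, at 75.2 ± 6.25. RAB10, a Rab of polarised exocytosis, RAB11B of the recycling endosome and RAB1B followed at 58.7 ± 2.19, 55.8 ± 0.998 and 52.3 ± 2.87. RAB20 led the early endosomal group at 35.2 ± 3.63, ahead of RAB4A at 17.0 ± 0.402. RAB11A was second among the recycling Rabs at 31.6 ± 1.03. In the mixed group of Rabs with no single assigned compartment, RAB40C and RAB28 led at 12.5 ± 0.342 and 8.29 ± 0.890. The leading gene held a large share of each group's summed level, from 33.9% in the mixed group to 75.7% in the exocytic group. The summed levels, here and below, take every Rab name of a group, those below the threshold included. Among neighbours in this order the intervals of RAB7A and RAB1A, of RAB10 and RAB11B, of RAB11B and RAB1B, and of RAB20 and RAB11A overlapped at 1 SD. RAB6A, at 43.6 ± 6.42, overlapped RAB1B above it and RAB20 below it.

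**Figure D1:**
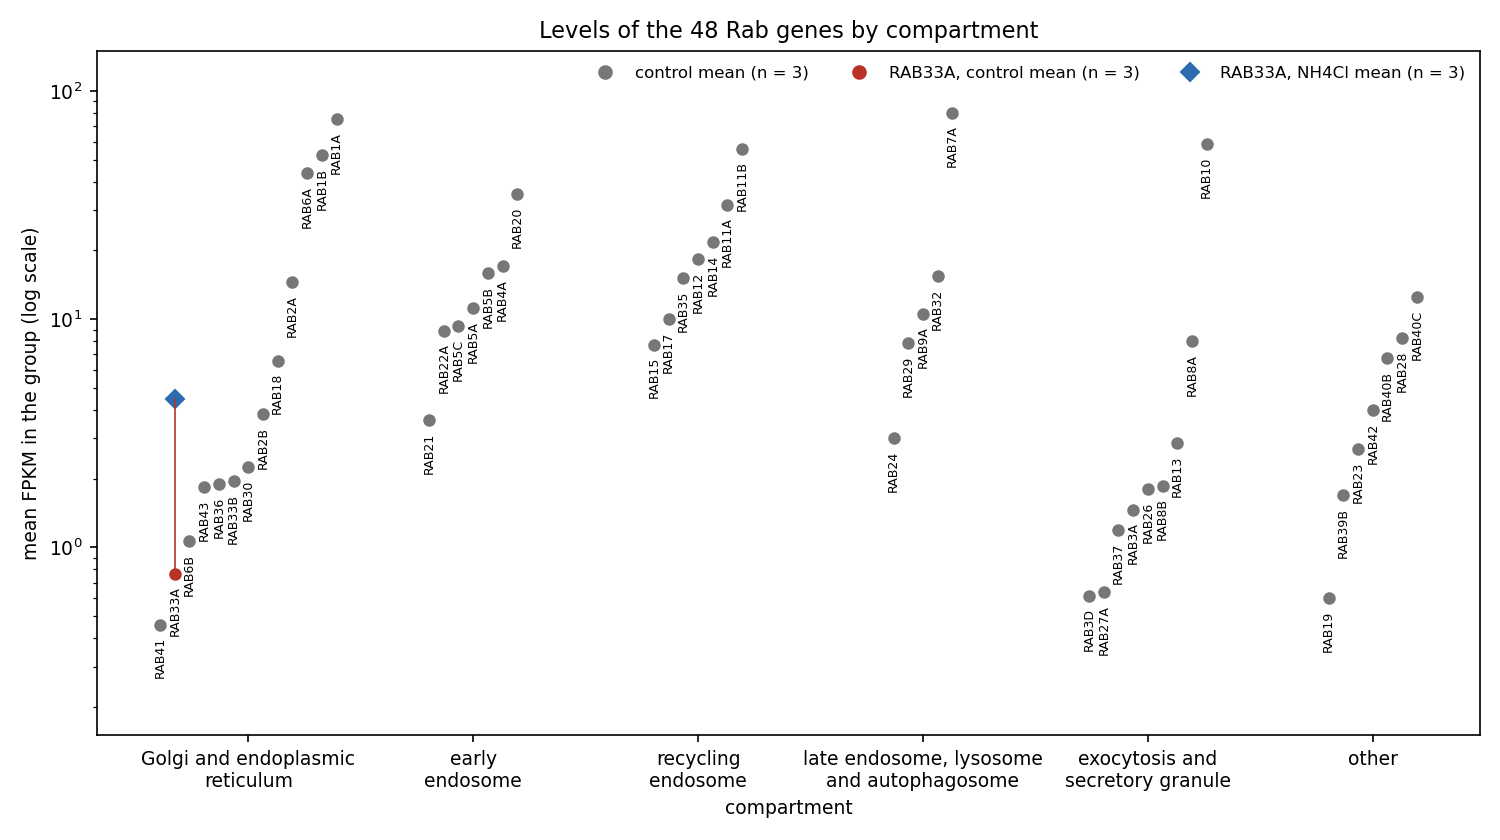
Mean FPKM of the 48 Rab genes in control cells (gray circles, n = 3 libraries, log scale), grouped by compartment. RAB33A stands at 0.765 FPKM in control cells (red circle) and at 4.47 in NH4Cl cells (blue diamond), next to leaders such as RAB7A at 80.3.

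RAB33A was among the lowest members in control cells and stood in the middle of the family with NH4Cl. Its FPKM in the 3 control libraries was 0.563, 0.926 and 0.805, and in the 3 TGF-β libraries 0.684, 0.995 and 2.02. With NH4Cl it was 2.99, 4.52 and 5.89, and with NH4Cl and TGF-β together 3.63, 3.90 and 6.04. Every library with NH4Cl lay above every library without it, and the replicate 3 library was the highest in each group but control. RAB33A ranked 44th of the 48 members in control cells and 29th in NH4Cl cells, and among the 13 Golgi and endoplasmic reticulum members it went from rank 12 to rank 6. In control cells its interval overlapped those of its neighbours RAB27A, at 0.635 ± 0.211, and RAB6B, at 1.06 ± 0.269 (SD, n = 3). The group means were 0.765 ± 0.184 and 4.47 ± 1.45 FPKM (SD, n = 3), a ratio of 5.84. These levels rest on few reads, between 12 and 20 in a control library and between 58 and 107 in an NH4Cl library.

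**Figure D2:**
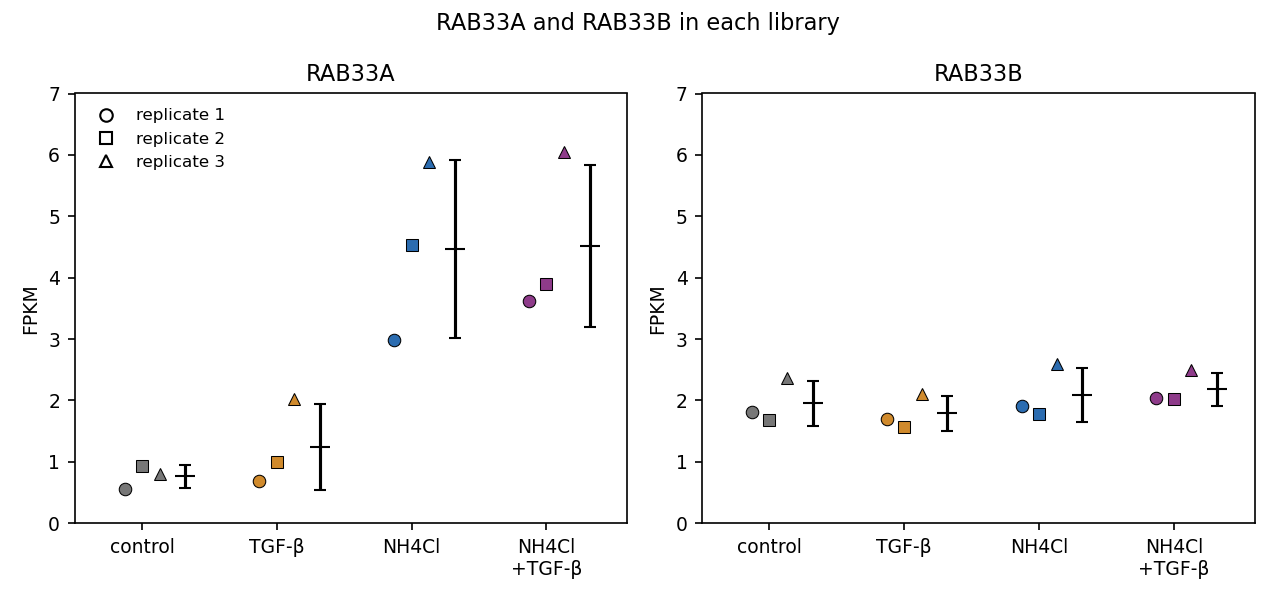
FPKM of RAB33A (left) and RAB33B (right) in each of the 12 libraries, with symbols for the replicate number and the mean ± SD of each group (n = 3) beside the points. RAB33A lies between 0.563 and 2.02 without NH4Cl and between 2.99 and 6.04 with it, while RAB33B stays between 1.57 and 2.59 in all libraries.

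The libraries with TGF-β did not enter the comparison on which RAB33A was singled out, although its levels there were known as well. The p-values given here for RAB33A are therefore no independent test. They also draw on the spread of all 12 libraries in the model, the control and NH4Cl libraries included. Leaving out control replicate 1 kept the difference at 1.32 and gave a limma adjusted p of 0.0808 without the block. NH4Cl+TGF-β cells had 4.52 ± 1.32 FPKM against 1.23 ± 0.701 in TGF-β cells (SD, n = 3), a ratio of 3.66 and higher in 3 of 3 replicate pairs. The difference was 1.32 ± 0.25 (SE) on the log2(FPKM + 1) scale, a scale that understates the change of low genes, and limma gave an adjusted p of 0.0497 over 14357 genes. With replicate number as a block in the model, the SE was 0.13 and the limma adjusted p 0.000534. Without the block the call rested on all libraries: it was lost on leaving out any single library other than TGF-β replicate 3 or NH4Cl replicate 3, with limma adjusted p up to 0.210, while with the block it passed in 12 of 12 such fits. A pseudocount of 0.1 and the fit with no filter also ended it (limma adjusted p = 0.0511 and 0.0845). Without the replicate 3 libraries, an alternative added after the data were seen, the difference was 1.38 (limma adjusted p = 0.00579, n = 2). In the fit of all genes, 1 gene of 14357 had a larger rise than RAB33A in this comparison. The difference of RAB33A was 0.30 in TGF-β against control cells, or 0.06 to 0.48 on leaving out a library. In NH4Cl+TGF-β against NH4Cl cells it was 0.02, or -0.19 to 0.21 on leaving out a library. These differences reuse the control and NH4Cl libraries on which RAB33A was singled out, so they are given without a test.

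RAB33B did not share the size of this difference. Its FPKM was 1.81, 1.68 and 2.36 in control, 1.69, 1.57 and 2.11 in TGF-β, 1.91, 1.78 and 2.59 in NH4Cl, and 2.04, 2.02 and 2.49 in NH4Cl+TGF-β libraries. The groups overlapped in both comparisons, and replicate 3 was the highest library in each group. RAB33A held 0.401 ± 0.131 of the FPKM of RAB33B in control cells and 2.13 ± 0.506 in NH4Cl cells (SD, n = 3), so the order of the relatives was inverted. In the libraries with TGF-β, the log2(FPKM + 1) of RAB33A minus that of RAB33B was 0.77 ± 0.21 with NH4Cl and -0.36 ± 0.32 without (SD, n = 3). Averaged over both backgrounds, RAB33B rose by 0.13 ± 0.04 (SE) in the fit with the replicate block (limma adjusted p = 0.0339). It was higher in 3 of 3 replicate pairs on each background, and had a limma adjusted p of 0.468 without the block. Leaving out a library gave averages of 0.07 to 0.18 without the block.

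RAB33A (ENSG00000134594) lies on the plus strand at chrX:130171649-130184870 (GRCh38), with 2 exons and 1258 exonic bases that overlap no exon of another annotated gene. Its neighbours did not share the size of its difference. AIFM1, a mitochondrial flavoprotein gene 5761 bases before it on the minus strand, had 45.1 ± 5.73 FPKM in control and 49.6 ± 6.85 in NH4Cl cells (SD, n = 3). Its average difference with NH4Cl was 0.16 ± 0.03 (SE) with the block (limma adjusted p = 0.00186) and missed the threshold without it (adjusted p = 0.397). ELF4, a transcription factor gene 60932 bases before RAB33A, differed by -0.06 ± 0.05 with the block (limma adjusted p = 0.405). ZNF280C, 17840 bases after RAB33A, differed by -0.05 ± 0.05 with the block (limma adjusted p = 0.532). RNU6-1130P, the next annotated gene on that side, was not in the table of values.

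The genes whose pattern was most like that of RAB33A were sought by the Pearson correlation of log2(FPKM + 1) over the 12 libraries, after each replicate number was centred on its mean. CRTAP, a cartilage-associated protein of collagen modification, came first with r = 0.99 and group means of 6.56 ± 0.265, 6.99 ± 0.564, 8.84 ± 0.653 and 9.16 ± 0.778 FPKM in control, TGF-β, NH4Cl and NH4Cl+TGF-β cells (SD, n = 3). CAMK2N1, an inhibitor of calmodulin-dependent kinase, KLF9, a zinc finger transcription factor, LEMD1 and the antisense transcript MATN1-AS1 followed with r = 0.99, 0.98, 0.98 and 0.98. Among the members the nearest were RAB29 with r = 0.97, RAB32 with 0.93 and RAB42 with 0.91. These correlations describe the same 12 libraries that define the groups and carry no test.

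Among the other 47 members, rises with NH4Cl were led by RAB26, RAB32, RAB40B and RAB29, and falls by RAB15, RAB36 and RAB11B. No comparison called more than a few of them without the replicate block. For NH4Cl against control, limma called 0 of the 47 at an adjusted p under 0.05, with 0.327% of all 14357 genes called, and 7 of the 47 had an unadjusted p under 0.05, against 1511 of all genes. For NH4Cl+TGF-β against TGF-β it called RAB32 and RAB29, 4.26% of the 47 beside 0.634% of all genes, and leaving out any single library except control replicate 3 lowered this count to 0 or 1, as did TPM scaling and the fit with no filter. For the average NH4Cl effect, 6 libraries against 6, it called RAB32, RAB29, RAB40B and RAB11B, 8.51% beside 5.45% of all genes, and 2 members without TGF-β replicate 2. Shares of all genes in the fits with a single library left out, TPM scaling or no filter are not given here. Without the replicate 3 libraries the 3 counts were 5, 6 and 16, or 10.6%, 12.8% and 34.0% of the 47 beside 7.95%, 11.3% and 22.7% of all genes.

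With the replicate block more members passed, as did more of all genes. NH4Cl against control then called 6 of 47, 12.8% beside 11.3% of all genes: 4 were higher, with 6.21% of all genes higher, and 2 lower, with 5.06% lower. NH4Cl+TGF-β against TGF-β called 15 of 47, 31.9% beside 15.8%: 10 were higher beside 8.79% of all genes and 5 lower beside 7.04%. The count of 15 was between 6 and 9 on leaving out any of the TGF-β libraries or NH4Cl+TGF-β replicate 1 or 2. The share of all genes called in those fits is not given here. The average NH4Cl effect called 19 of 47, 40.4% beside 27.7%: 13 were higher, 27.7% of the 47 beside 14.3% of all genes, and 6 lower, 12.8% beside 13.3%. The share of lower members was thus near that of all genes. The median difference of the 47 was 0.06 in this comparison and that of all genes -0.00 on the log2 scale.

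NH4Cl against control and NH4Cl+TGF-β against TGF-β share no library. The members' differences in them mostly went the same way, as did those of all genes. Of the 47, 27 were higher in both, 11 lower in both and 9 opposite, so 80.9% went the same way, beside 76.1% of all genes. Across the 47 genes, which are not independent replicates, the Pearson correlation of the differences was 0.79, beside 0.61 across all genes. Limma called no interaction between NH4Cl and TGF-β for any of the 47, nor for any gene, which is 0%, with or without the block, and 2 of the 47 and 178 of all genes had an unadjusted p under 0.05 without it.

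**Figure D3:**
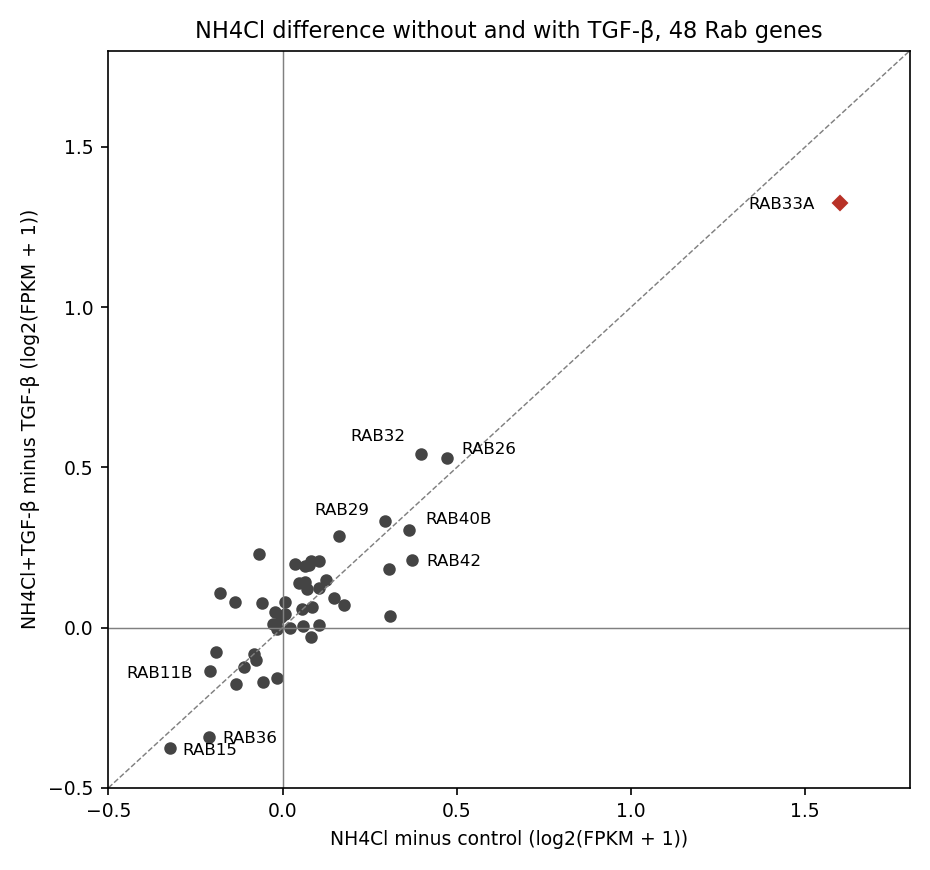
Difference in log2(FPKM + 1) for NH4Cl against control (horizontal) and for NH4Cl+TGF-β against TGF-β (vertical) of the 48 Rab genes, each the difference of means of 3 libraries. RAB33A (red diamond) lies at 1.60 and 1.32, and the other genes lie between -0.38 and 0.54 on both axes.

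TGF-β for 1 h brought none of the other 47 members past the threshold. Against control, limma called 0 of the 47 and 0% of all genes without the block, where 0 of the 47 and 169 of all genes had an unadjusted p under 0.05. With the block it called 0 of the 47 and 0.00697% of all genes, a single gene, where 4 and 535 had an unadjusted p under 0.05. For NH4Cl+TGF-β against NH4Cl it called 0 of the 47 and 0% of all genes in both fits, and 4 of the 47 and 983 of all genes had an unadjusted p under 0.05 with the block. The differences of the 47 lay between -0.14 and 0.21 in the TGF-β comparison and between -0.16 and 0.16 in the NH4Cl+TGF-β comparison with NH4Cl.

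All 5 late endosomal, lysosomal and autophagosomal members had positive average differences with NH4Cl. So did 32 of the 47 members other than RAB33A, or 68.1%, and 49.5% of all genes. Of the 5 members, 3 rose in the average comparison with the block and none fell, where 14.3% of all genes were higher and 13.3% lower. Their differences ran from 0.08 for RAB7A to 0.47 for RAB32. RAB32, which serves lysosome-related organelles and mitochondria, had 16.1, 15.7 and 14.5 FPKM in control, 15.0, 13.1 and 15.8 in TGF-β, 19.9, 19.9 and 22.3 in NH4Cl, and 21.9, 22.7 and 20.7 in NH4Cl+TGF-β libraries. All 6 libraries with NH4Cl were above all 6 without, and no replicate number was the highest throughout. The average difference was 0.47 ± 0.06 (SE, limma adjusted p = 0.00210 without the block), and it was called in 12 of 12 fits that left out a library. RAB29, a Rab of the trans-Golgi network and lysosomes that recruits the kinase LRRK2, had 7.65, 8.34 and 7.56 FPKM in control and 7.57, 8.47 and 7.71 in TGF-β libraries. With NH4Cl it had 9.61, 9.93 and 9.98, and with both agents 10.2, 10.6 and 9.86. Again no library with NH4Cl overlapped those without, and the difference of 0.31 ± 0.04 (SE, limma adjusted p = 0.00368) was called in 12 of 12 such fits. RAB7A rose by 0.08 ± 0.02 with the block (limma adjusted p = 0.0458) and had an adjusted p of 0.314 without it. RAB9A and RAB24, of endosome-to-Golgi return and of autophagy, differed by 0.10 ± 0.06 and 0.12 ± 0.06 with the block and passed in neither fit. The summed level of the group's 8 Rab names, 5 of them members, was 118 ± 1.62 FPKM in control and 130 ± 3.03 in NH4Cl cells. It was 116 ± 2.27 and 131 ± 3.76 in TGF-β and NH4Cl+TGF-β cells (SD, n = 3).

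**Figure D4:**
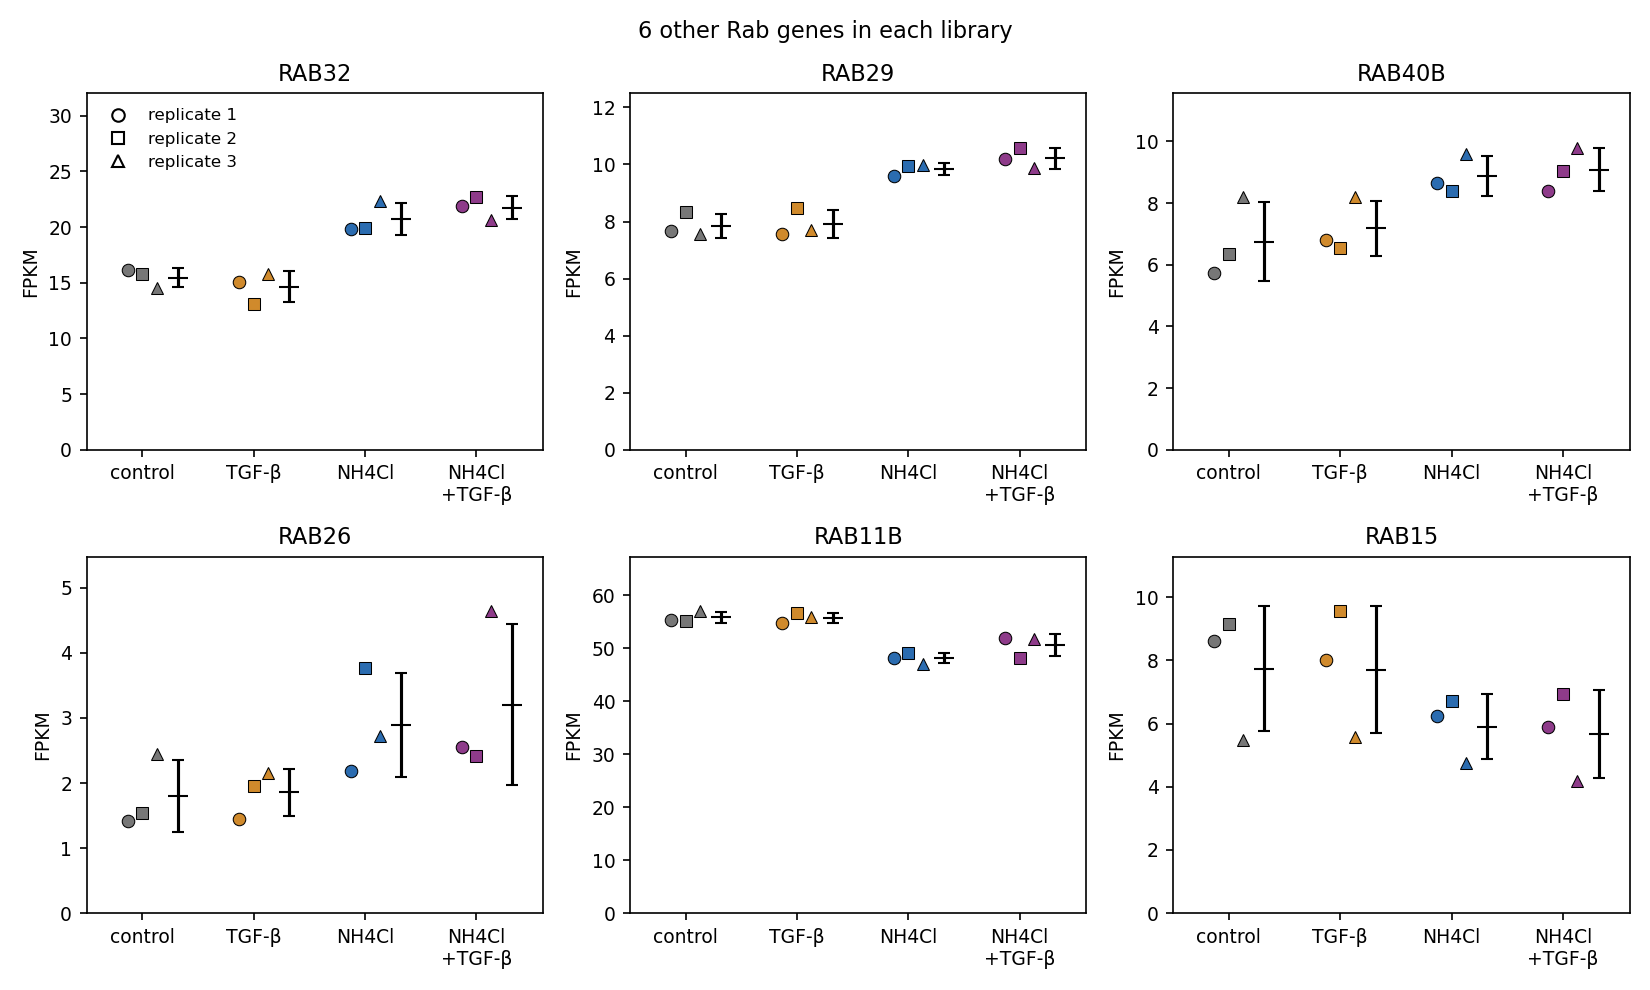
FPKM of RAB32, RAB29, RAB40B, RAB26, RAB11B and RAB15 in each of the 12 libraries, with symbols for the replicate number and the mean ± SD of each group (n = 3) beside the points. RAB32 lies between 13.1 and 16.1 without NH4Cl and between 19.9 and 22.7 with it, and RAB15 is lowest in the replicate 3 library of each group.

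The promoters of the 4 members called in the average comparison without the block are shown because these genes changed together with NH4Cl, RAB32, RAB40B and RAB29 upward and RAB11B downward. The sequences are from RefSeq (GRCh38.p14), 300 bases each, 250 before and 50 after the gene's start in RefSeq, read on the strand of the gene. This start differs from that in GENCODE 29 for all 4 genes, and the window of RAB11B lies inside its GENCODE span. The table held 37 of the 48 members, and RAB33A was not among them. Capitals mark any match to 4 motifs searched on both strands: CACGTG, the core bound by E-box factors, TGACGTCA, the cyclic AMP response element, TGANTCA, the AP-1 site, and TGATGCAA, an amino acid response element. No marked matches overlap. The windows are chr6:146543583-146543882 on the plus strand for RAB32, chr17:82698649-82698948 on the minus strand for RAB40B, chr1:205775433-205775732 on the minus strand for RAB29 and chr19:8390110-8390409 on the plus strand for RAB11B.
RAB32: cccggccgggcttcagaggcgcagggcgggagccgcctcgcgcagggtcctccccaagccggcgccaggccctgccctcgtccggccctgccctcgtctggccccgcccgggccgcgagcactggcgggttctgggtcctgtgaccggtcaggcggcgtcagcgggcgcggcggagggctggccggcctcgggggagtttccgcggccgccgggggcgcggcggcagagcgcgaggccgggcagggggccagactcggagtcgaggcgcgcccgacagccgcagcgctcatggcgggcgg
RAB40B: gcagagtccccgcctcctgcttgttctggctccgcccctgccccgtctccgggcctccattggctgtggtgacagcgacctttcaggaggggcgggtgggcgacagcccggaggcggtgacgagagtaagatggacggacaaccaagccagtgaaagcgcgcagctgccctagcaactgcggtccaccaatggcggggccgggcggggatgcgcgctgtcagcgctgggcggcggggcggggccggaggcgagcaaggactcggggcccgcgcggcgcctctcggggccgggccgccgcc
RAB29: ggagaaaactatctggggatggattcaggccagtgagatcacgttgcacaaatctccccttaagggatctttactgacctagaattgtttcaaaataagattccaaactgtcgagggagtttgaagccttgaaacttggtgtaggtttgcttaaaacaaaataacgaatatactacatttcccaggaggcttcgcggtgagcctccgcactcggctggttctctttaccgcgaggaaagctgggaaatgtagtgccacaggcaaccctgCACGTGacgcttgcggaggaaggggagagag
RAB11B: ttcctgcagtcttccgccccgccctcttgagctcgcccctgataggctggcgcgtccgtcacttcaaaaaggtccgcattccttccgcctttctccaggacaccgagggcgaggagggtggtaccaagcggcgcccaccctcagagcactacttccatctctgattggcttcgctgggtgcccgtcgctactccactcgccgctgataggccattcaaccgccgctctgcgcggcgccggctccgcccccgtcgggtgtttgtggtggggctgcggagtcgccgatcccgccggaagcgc
Of these sequences RAB29 alone held a match, a CACGTG that begins at base 20 of the 50 after the start. CACGTG was found in 5 of the 37 member promoters, RAB21, RAB24, RAB29, RAB4A and RAB5A, or 13.5%, and in 7.26% of all 35116 promoters. TGANTCA was found in RAB5B among the members and in 7.71% of all promoters, and TGACGTCA and TGATGCAA in 0 of the 37 and in 1.85% and 0.866% of all. A match describes the letters in this window and no binding.

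The Golgi and endoplasmic reticulum group held rises and a fall besides RAB33A. Of the 12 others, 4 rose and 1 fell in the average comparison with the block, 7 were not called, and none was called without the block. Of all genes 27.7% were called in the fit with the block, 14.3% higher and 13.3% lower, and 5.45% in the fit without it. The risers were RAB30, a Golgi Rab, by 0.14 ± 0.04 (SE), RAB33B by 0.13 ± 0.04, RAB6A, which directs retrograde transport at the Golgi, by 0.11 ± 0.02, and RAB1A by 0.09 ± 0.03, all with the block. Their limma adjusted p were 0.0333, 0.0339, 0.00397 and 0.0280 with the block and 0.484, 0.468, 0.554 and 0.561 without it. On leaving out a library, without the block, the averages ran from 0.08 to 0.20 for RAB30 and from 0.07 to 0.18 for RAB33B. They ran from 0.06 to 0.17 for RAB6A and from 0.04 to 0.13 for RAB1A. RAB36, a Rab of the Golgi and late endosome positioning, fell by 0.28 ± 0.05 with the block (limma adjusted p = 0.00320 with and 0.128 without it). It had 1.89 ± 0.283 FPKM in control and 1.51 ± 0.380 in NH4Cl cells (SD, n = 3) and was lower in 3 of 3 replicate pairs on each background. RAB41, which also acts at the Golgi, had the most positive average difference of the 12 at 0.17 ± 0.07 with the block (limma adjusted p = 0.0806). This average joins 0.31 in NH4Cl against control and 0.04 in NH4Cl+TGF-β against TGF-β. The mean of RAB41 in control cells, 0.458 FPKM, lay below 0.5. The abundant RAB1B differed by -0.14 ± 0.05 in NH4Cl against control, lower in 3 of 3 replicate pairs, and by 0.08 ± 0.05 in NH4Cl+TGF-β against TGF-β with the block (limma adjusted p = 0.0880 and 0.283), so its average of -0.03 ± 0.03 joins opposite signs. RAB33A held 0.371 ± 0.0938% of the group's summed FPKM in control cells and 2.08 ± 0.562% in NH4Cl cells (SD, n = 3).

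**Figure D5:**
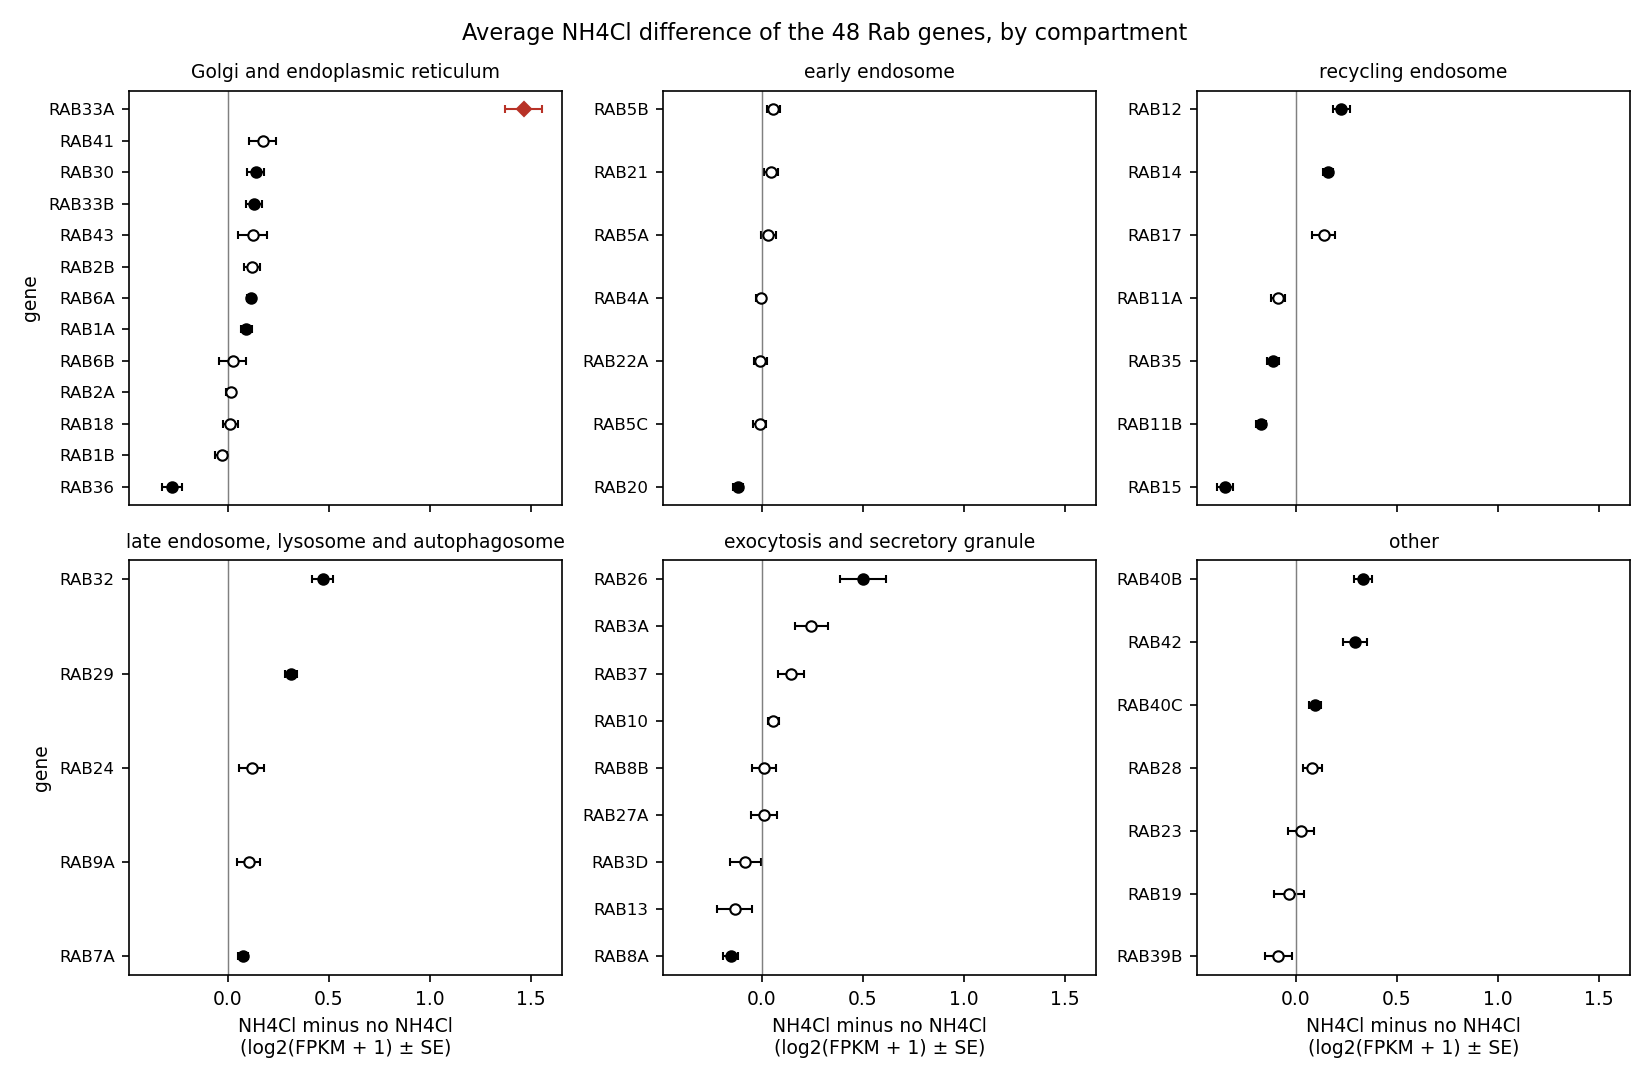
Average difference with NH4Cl (6 libraries with against 6 without) in log2(FPKM + 1) for the 48 Rab genes by compartment, with bars of ± 1 SE from the fit with the replicate block. Filled circles passed a limma adjusted p of 0.05 in that fit, open circles did not, and RAB33A (red diamond, no test) lies at 1.46, above the next largest, RAB26, at 0.50.

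Recycling endosomal members went both ways. Of 7, 2 rose and 3 fell with the block, beside 14.3% of all genes higher and 13.3% lower. The single member called without the block, where 5.45% of all genes were called, was RAB11B, which returns receptors to the cell surface. RAB11B had 55.3, 55.2 and 57.0 FPKM in control, 54.7, 56.6 and 55.9 in TGF-β, 48.2, 49.1 and 47.1 in NH4Cl, and 51.9, 48.3 and 51.8 in NH4Cl+TGF-β libraries. The libraries with and without NH4Cl did not overlap, and the average fall was 0.17 ± 0.03 (SE) with a limma adjusted p of 0.0172, or 0.0549 without TGF-β replicate 2. RAB15, which acts in receptor recycling, fell by 0.35 ± 0.04 (SE) with the block (limma adjusted p = 0.000320) and was lower in 3 of 3 replicate pairs on each background. Its FPKM was 8.60, 9.14 and 5.48 in control and 6.23, 6.73 and 4.76 in NH4Cl libraries. The replicate 3 library was the lowest of each group, and without the block the limma adjusted p was 0.255. RAB35, of fast recycling, fell by 0.11 ± 0.03 with the block (limma adjusted p = 0.0202 with and 0.188 without). RAB12, which steers transferrin receptor to degradation, and RAB14, which moves cargo between endosomes and Golgi, rose by 0.22 ± 0.04 and 0.16 ± 0.02 with the block (limma adjusted p = 0.00472 and 0.00162). RAB11A differed by -0.09 ± 0.03 with the block and passed in neither fit. The group's summed level was 161 ± 1.81 FPKM in control and 154 ± 2.48 in NH4Cl cells (SD, n = 3). In TGF-β and NH4Cl+TGF-β cells it was 160 ± 2.73 and 157 ± 3.66 (SD, n = 3), which overlapped at 1 SD.

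In the early endosomal group 1 of 7 members was called with the block, beside 27.7% of all genes, and none without it, beside 5.45%. RAB20, a Rab of phagosome and endosome maturation, fell by 0.12 ± 0.02 (SE, limma adjusted p = 0.00685 with and 0.376 without the block). The other 6, RAB4A and the RAB5 genes among them, lay between -0.01 and 0.06 and were not called. The summed level was 102 ± 6.34 FPKM in control and 100 ± 5.32 in NH4Cl cells (SD, n = 3).

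Of 9 exocytic and granule members 1 rose and 1 fell with the block, beside 27.7% of all genes called. RAB26, which marks secretory granules and synaptic vesicles, rose by 0.50 ± 0.11 (SE, limma adjusted p = 0.00983 with and 0.0946 without the block), more than any member but RAB33A. Its FPKM was 1.42, 1.54 and 2.44 in control, 1.45, 1.96 and 2.16 in TGF-β, 2.19, 3.76 and 2.73 in NH4Cl, and 2.56, 2.42 and 4.64 in NH4Cl+TGF-β libraries. Replicate 3 of control lay within the range of the NH4Cl libraries, so these groups overlapped. RAB8A, which delivers vesicles to the cell surface and the cilium, fell by 0.15 ± 0.04 (limma adjusted p = 0.0144 with and 0.0869 without the block). RAB10, the most abundant of the group, differed by 0.06 ± 0.03 with the block (limma adjusted p = 0.143).

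Of the 7 members in the mixed group 3 rose with the block, beside 14.3% of all genes, and RAB40B also without it, where 5.45% of all genes were called. RAB40B, which carries a domain that recruits a ubiquitin ligase, had 5.72, 6.34 and 8.18 FPKM in control, 6.81, 6.54 and 8.21 in TGF-β, 8.66, 8.39 and 9.61 in NH4Cl, and 8.39, 9.05 and 9.79 in NH4Cl+TGF-β libraries. All libraries with NH4Cl lay above all without, by a small margin over both replicate 3 libraries without NH4Cl. The difference was 0.33 ± 0.08 (SE) with a limma adjusted p of 0.0473 without the block, which was lost in 10 of 12 fits that left out a library, all but those without control or TGF-β replicate 3, with adjusted p up to 0.117. With the block the limma adjusted p was 0.000607. RAB42 and RAB40C rose by 0.29 ± 0.06 and 0.10 ± 0.03 with the block (limma adjusted p = 0.00592 and 0.0355) and were not called without it. RAB28 rose by 0.23 ± 0.07 in NH4Cl+TGF-β against TGF-β with the block (limma adjusted p = 0.0448 with and 0.261 without it) and differed by -0.07 ± 0.07 in NH4Cl against control (limma adjusted p = 0.566 with the block). It was the single called member whose differences had opposite signs, and its interaction was not called.

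Genes that act on Rab proteins were taken from a list of 158, of which 142 were measured at a mean FPKM of at least 0.5. In the average comparison with the block 23 were higher and 12 lower, 24.6% of the 142, near the 27.7% of all genes. The 9 effectors and regulators of RAB33 were all measured. None was called with or without the block, beside 27.7% and 5.45% of all genes in the average comparison. ATG16L1, the autophagy protein that RAB33 proteins bind, had 7.74 ± 0.997 FPKM with NH4Cl and 7.66 ± 1.19 without (SD, n = 6), and ATG5 and ATG12, its partners in the same complex, had 7.96 ± 0.642 against 8.09 ± 0.366 and 6.86 ± 0.455 against 6.86 ± 0.528. ATG16L2 differed by 0.08 ± 0.04 (SE, with the block). The GTPase-activating protein TBC1D25 and the Golgi tether GOLGA2 differed by -0.00 ± 0.04 and 0.06 ± 0.03, the RIC1 and RGP1 subunits of a Rab exchange factor by -0.07 ± 0.04 and -0.10 ± 0.04, and RUFY3 by 0.08 ± 0.05.

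Among the genes for prenylation, CHML, an escort protein, and RABGGTA, a subunit of the Rab prenylating enzyme, fell by 0.19 ± 0.04 and 0.14 ± 0.04 (SE) with the block (limma adjusted p = 0.00528 and 0.0436) and were not called without it. Of 50 exchange factors 5 were higher and 3 lower with the block, 16.0% beside 27.7% of all genes. RAB3IL1, an exchange factor for RAB8, had the largest rise, 0.58 ± 0.07 (SE, limma adjusted p = 0.00273 without the block), with 6.04 ± 0.793 FPKM with NH4Cl against 3.67 ± 0.0783 without (SD, n = 6). DENND4B, which acts on RAB10, rose by 0.25 ± 0.06 (limma adjusted p = 0.0355 without the block, lost in 10 of 12 fits that left out a library, all but those without control or TGF-β replicate 3), and RMC1, of the exchange factor for RAB7, by 0.18 ± 0.04 with the block (limma adjusted p = 0.0149). RIN2, an exchange factor for RAB5, fell by 0.37 ± 0.06 (limma adjusted p = 0.00788 without the block), and RIN3 and TRAPPC9 by 0.23 ± 0.05 and 0.13 ± 0.04 with it (limma adjusted p = 0.00693 and 0.0474). RMC1, RIN3 and TRAPPC9 were not called without the block. RAB3IL1 and RIN2 were each called in 12 of 12 fits that left out a library.

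Of 32 GTPase-activating proteins 5 were higher and 4 lower with the block, 28.1% and so near the 27.7% of all genes. None was called without it, where 5.45% of all genes were called. RABGAP1, TBC1D20 and TBC1D17 rose most, by 0.25 ± 0.04, 0.22 ± 0.04 and 0.16 ± 0.05 (SE), and TBC1D2, TBC1D22A and USP6NL fell most, by 0.20 ± 0.06, 0.20 ± 0.04 and 0.15 ± 0.05, with limma adjusted p between 0.00169 and 0.0436. Of 46 effectors 12 were higher and 3 lower, a share of 32.6% beside the 27.7% of all genes. MICALL2 and RILPL1, effectors of RAB8 and its relatives, rose by 0.24 ± 0.04 and 0.23 ± 0.06, and the synaptotagmin-like SYTL3 by 0.24 ± 0.07, all with the block (limma adjusted p without it = 0.353, 0.0555 and 0.654). The average of SYTL3 ran from 0.07 to 0.37 on leaving out a library, without the block. APPL2, an endosomal effector of RAB5, fell by 0.22 ± 0.03 with the block and was called without it (limma adjusted p = 0.0107), while the tethering subunit VPS41 and RABEP2, a partner of RAB5, fell by 0.20 ± 0.03 and 0.16 ± 0.05 with the block and were not called without it (limma adjusted p = 0.188 and 0.292). The effectors higher without the block were EEA1, an endosomal tether bound by RAB5, by 0.17 ± 0.04 (limma adjusted p = 0.0364), and RAB11FIP4, which binds RAB11, by 0.21 ± 0.05 (limma adjusted p = 0.0380). The call of EEA1 was lost in 12 of 12 fits that left out a library, and that of RAB11FIP4 in all but those without TGF-β replicate 3 or NH4Cl replicate 1. The limma adjusted p of all these effectors with the block lay between 0.000972 and 0.0392.

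The lowest members kept were RAB27A, RAB3D and RAB19, with mean FPKM of 0.625, 0.604 and 0.508 over the 12 libraries. RAB31, RAB3B and RAB6D, with 0.474, 0.388 and 0.289, were the nearest of the 15 Rab names left out. RAB19 had 0.602 in control, 0.456 in TGF-β, 0.408 in NH4Cl and 0.565 in NH4Cl+TGF-β cells. RAB33A had a mean of 2.75 and 0.765 in control cells, so it would have passed the threshold in its lowest group also.

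The sources used here do not state whether the counting of reads used strand, so it is unclear how reads in overlapping exons were assigned. Exons of other annotated genes overlap 79.3% of the exonic bases of RAB43, 57.7% of RAB23, 44.8% of RAB24, 42.6% of RAB1B, 41.7% of RAB8A and 30.4% of RAB5C. The overlap is 24.9% for RAB3D, 24.8% for RAB13, 22.9% for RAB1A and 19.6% for RAB4A. It is 14.8% for RAB35, 13.8% for RAB33B and 12.4% for RAB11B, the last with the antisense transcript RAB11B-AS1. The levels of all genes listed here are uncertain for this reason, by an amount that these shares do not measure. RAB32, RAB29, RAB40B, RAB26, RAB15 and RAB36 have no such overlap.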

How the data were processed

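RNA from HCT116 cells was sequenced in 12 libraries, 4 groups of 3. Per the submitters' processing notes, the authors trimmed reads with Trimmomatic 0.36, aligned them to GRCh38 with STAR 2.5.2b, counted them with featureCounts (Subread 1.5.2), tested with DESeq2 and deposited FPKM values per gene. The paper names HTSeq for the counting. FPKM multiplied by GENCODE 29 exon length gave whole reads for 100% of values (tolerance 0.1). Genes whose FPKM averaged 0.5 or more were fitted as log2(FPKM + 1) with limma 3.58.1 in R 4.3.3 (intensity trend, two-sided, Benjamini-Hochberg over 14357 genes, threshold 0.05), with group means and, as an alternative, replicate number as a block. The fit was tested on simulated data. Same-numbered libraries of different groups deviated together from their group means (18 correlations between 0.28 and 0.71), and the block was used on that basis. Libraries of replicates 1 and 2 from different groups also correlated across numbers, at 0.27 to 0.41, so the deviations set replicate 3 apart and do not show that numbers 1 and 2 pair libraries. Libraries of replicates 1 and 2 of a group differed by a chi-square per degree of freedom of 1.71 to 4.65, and replicate 3 from them by 22.9 to 32.8. Named genes were RAB33A, RAB33B, up to 10 rises and 10 falls called with the block, the 2 most abundant per compartment, those beside the threshold and those called without the block. Of partners, all of RAB33 and up to 3 rises and 3 falls per role were named (not every gene the rule takes is printed), with the 5 genes and 3 members most like RAB33A and its nearest 2 genes on each side. Alternatives were the block, a pseudocount of 0.1, no filter, a minimum of 1, TPM scaling and leaving out libraries. EEA1, RAB11FIP4, RAB6B, RAB9A, RAB41 and the genes singled out for exon overlap or motifs were named after their values were seen. The members, the compartment, partner and marker lists were chosen with earlier results of these data known.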

Additional observations from a re-analysis of the deposited data

How the results depend on the processing

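Counts are of the 47 members other than RAB33A. The share of all genes called changes between fits as well. It is not given for the fits with TPM scaling, with no filter or with a single library left out. Changes of those counts therefore do not separate the members from all genes. With the replicate block, the counts called were 6 for NH4Cl against control, 15 for NH4Cl+TGF-β against TGF-β and 19 for the average NH4Cl effect, against 0, 2 and 4 without, and all called without it were also called with it. The block changed no other count. TPM scaling with the block gave 6, 13 and 20. Using replicates 1 and 2 alone, chosen after seeing the data, gave 5, 6 and 16 without the block and 5, 8 and 17 with it. For NH4Cl+TGF-β against TGF-β, TPM scaling called 0 and no filter 1. Leaving out each library in turn gave 0 to 2 for this comparison and 2 to 6 for the average, and with the block (added after seeing the data) 5 to 8, 6 to 15 and 13 to 18. The counts for NH4Cl against control, TGF-β against control, NH4Cl+TGF-β against NH4Cl and the interaction stayed at 0 on leaving out any library without the block. RAB33A in NH4Cl+TGF-β against TGF-β was 1.88 with pseudocount 0.1 (limma adjusted p = 0.0511) and 1.32 with no filter (adjusted p = 0.0845), past the threshold by neither, and 1.14 to 1.57 on leaving out a library, or 1.26 to 1.43 with the block. Over all these fits its adjusted p lay between 0.000165 and 0.210. RAB33A in NH4Cl against control was 2.37 with pseudocount 0.1 and 2.15 with TPM scaling, with or without the block, beside 1.60; TPM sums exceed FPKM sums, so the pseudocount weighs less there. It was 1.42 to 1.81 on leaving out a library. Its TGF-β difference was 0.06 to 0.48, and on top of NH4Cl -0.19 to 0.21. Of the named Rab genes no called difference changed direction. The cause of the other changes was not tested. Depth limits the low members: 1 read is worth 0.0469 FPKM of RAB33A in control replicate 1.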
